A study of Mus musculus with 27 samples.

Results

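Myosin light chains are the small subunits that clasp the lever arm of the myosin II heavy chain, 1 essential and 1 regulatory chain per head. Striated muscle, smooth muscle and non-muscle cells use different light chain genes. Phosphorylation of the regulatory chain by myosin light chain kinase, the product of Mylk, switches smooth muscle and non-muscle myosin on, and myosin phosphatase reverses it. The genes described here are the 9 rows of the deposited expression table whose symbol is Myl3, Myl4, Myl6, Myl6b, Myl7, Myl9, Myl12a, Myl12b or Mylk, out of 53379 genes listed. Myl3, Myl4 and Myl7 are chains of striated muscle and Myl9 is a regulatory chain of smooth muscle, here together called the muscle chains. Myl6, Myl6b, Myl12a and Myl12b are here called the non-muscle chains, although Myl6 also serves smooth muscle and Myl6b slow muscle. The class names are labels for these genes and do not mean that a gene is used in that cell type alone.

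The cells were E14, an established line of mouse embryonic stem cells kept on gelatin with LIF, and their polyadenylated RNA was sequenced. They received siRNA against eGFP as the negative control (siGFP), against PTBP1 (siPTBP1), or against PTBP1 and PTBP2 together (siPTBP1+siPTBP2, the combined knockdown), were transfected again after 24 h and were harvested at 48 h. Ptbp1 and Ptbp2 encode polypyrimidine tract binding proteins, which regulate splicing. Cytoplasmic (CY), nucleoplasmic (NP) and chromatin-associated (CH) RNA of each treatment was sequenced in 3 biological replicates, giving 9 groups and 27 libraries. All groups are the same cell line, and each knockdown is a transient transfection. Values are TPM, the share of a transcript among all transcripts of a library on a fixed total, which are scaled for transcript length, so that levels of different genes can be set side by side. TPM do not show how many reads stand behind a value, so the depth is unknown.

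Ptbp1 stood at 502 to 611 TPM in siGFP CY, at 110 to 144 after siPTBP1 and at 113 to 200.2 in the combined knockdown. In CH the corresponding ranges were 349 to 659, 192 to 294 and 218 to 339 TPM. Ptbp2 in CY was at 3.52, 15.0 and 15.4 TPM in siGFP, and at 1.45, 7.29 and 7.55 TPM in the combined knockdown. These groups overlap, while each combined knockdown library was below the control of its own number. The log2 difference of -0.93 in CY did not pass the test (limma, adjusted p = 1) and passed with replicate number as a block (0.00113), as in NP (-0.78, adjusted p = 1, with the block 0.00714). In CH the means were 67.5 ± 38.7 and 54.9 ± 27.3 TPM (-0.21, adjusted p = 1, with the block 0.587). All 8 markers listed for embryonic stem cells were present at 1 TPM or more in every library. In CY they summed to between 3939 and 4098 TPM with siGFP, to between 2927 and 3598 TPM with siPTBP1 and to between 3001 and 3663 TPM with both siRNAs, the knockdown libraries all lying below the controls. Of the 8 markers, 0 were called in CY with limma in either knockdown. At an unadjusted level of 0.05 there were 0 and 2, against 4.41% and 4.96% of all genes. With the block 0 were lower after siPTBP1 and 3 in the combined knockdown, where 0.495% and 0.951% of all genes were lower. The part of this difference in the light chain results was not tested. The replicates differed in how many genes reached 1 TPM. In 9 of 9 groups replicate 1 had the fewest such genes, and in every group replicate 2 had the most. Results are also given without the replicate 1 libraries where they bear on a value. Leaving out all replicate 2 libraries was not tried.

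The 3 regulatory chains Myl9, Myl12a and Myl12b are close relatives, and their coding sequences are shown because the results separate Myl9 from the other two. Each coding sequence has 519 bases, of which all 3 share 438. Bases 1 to 90 follow, from the GENCODE M21 transcripts (GRCm38), with the 76 bases that all 3 genes share in capitals.
Myl9: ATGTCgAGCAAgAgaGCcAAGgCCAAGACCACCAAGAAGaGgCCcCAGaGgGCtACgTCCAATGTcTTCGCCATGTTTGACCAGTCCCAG
Myl12a: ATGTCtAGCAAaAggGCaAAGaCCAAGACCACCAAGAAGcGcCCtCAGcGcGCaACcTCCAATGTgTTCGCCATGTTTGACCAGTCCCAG
Myl12b: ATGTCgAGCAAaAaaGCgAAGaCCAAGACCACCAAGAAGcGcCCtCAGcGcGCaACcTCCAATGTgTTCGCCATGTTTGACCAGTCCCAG
Myl12a and Myl12b were identical at 96.5% of coding bases, Myl9 and Myl12a at 85.5%, and Myl9 and Myl12b at 86.3%. Of the distinct 31-base words in Myl9 transcripts, 0.412% also occurred in another gene of the table. The share was 10.1% for Myl12a and 12.2% for Myl12b, mostly words that these neighbours share with each other, and 11.4% for Myl6, mostly words shared with the pseudogenes Gm5526, Gm10080 and Gm8894. The levels of Myl12a, Myl12b and Myl6 are in that measure uncertain, while those of Myl9 rest almost wholly on its own sequence.

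The windows just upstream of the start sites are shown because many muscle genes, actin and calponin genes among them, are regulated by serum response factor (SRF) through the CArG box. Each window was the 250 bases before a RefSeq start (GRCm38.p6), searched on both strands for the CArG box, TATAAA and CATTCC, which is the core of the site of TEAD factors. A CArG box can itself contain TATAAA. Of 32851 such windows, 1.47% held a CArG box, 12.4% TATAAA and 12.6% CATTCC. Among the 9 genes a CArG box stood before the starts of Myl9, Myl3, Myl7 and the inner start of Myl6, and none was found in the windows of Myl4, Myl6b, Myl12a, Myl12b and Mylk. TATAAA was in none of them, and CATTCC occurred in those of Myl3, Myl7 and Mylk.

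The sequences of Myl9, Myl3 and Myl7 follow 5′ to 3′ on the strand of the gene, outside annotated exons, with the CArG box in capitals. They are Myl9 at chr2:156775214-156775419 (plus), Myl3 at chr9:110763428-110763645 (plus) and Myl7 at chr11:5898783-5899032 (minus).
Myl9: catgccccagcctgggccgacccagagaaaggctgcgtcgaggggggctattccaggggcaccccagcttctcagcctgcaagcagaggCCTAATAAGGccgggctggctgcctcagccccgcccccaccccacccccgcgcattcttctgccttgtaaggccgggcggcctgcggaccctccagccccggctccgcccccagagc
Myl3: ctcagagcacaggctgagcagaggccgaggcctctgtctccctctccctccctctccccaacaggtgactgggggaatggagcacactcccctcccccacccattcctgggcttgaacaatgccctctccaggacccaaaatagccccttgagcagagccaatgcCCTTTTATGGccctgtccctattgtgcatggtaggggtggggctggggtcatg
Myl7: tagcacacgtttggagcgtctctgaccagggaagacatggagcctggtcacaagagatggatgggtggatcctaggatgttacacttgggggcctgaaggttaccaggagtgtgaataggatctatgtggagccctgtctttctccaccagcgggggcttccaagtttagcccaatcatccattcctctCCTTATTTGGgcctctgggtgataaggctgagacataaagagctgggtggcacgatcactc
The CArG box lies 161 to 152 bases before the start in Myl9, 85 to 76 in Myl3 and 61 to 52 in Myl7. Of these 3 genes, Myl9 and Myl3 rose after the knockdowns and Myl7 did not pass the test, as described with each gene. Myl6, whose inner start also has a CArG box, did not pass the test either. The letters describe the windows and do not show binding.

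In control cytoplasm (siGFP CY) the non-muscle chains were far more abundant than the muscle chains, on the length-scaled TPM. Myl6 had a mean of 501 ± 94.1 TPM, Myl12a 245 ± 7.64 and Myl12b 167 ± 17.7 (SD over 3 libraries), and the libraries of these 3 genes did not overlap with each other. Then followed Myl6b at 15.7 ± 0.195, Myl4 at 13.9 ± 3.31, Myl7 at 11.4 ± 1.38 and Myl9 at 8.59 ± 4.48 TPM, and the libraries of each of these 4 overlapped with those of the next. Myl3 at 0.680 ± 0.372 and Mylk at 0.133 ± 0.0666 TPM were lowest and did not overlap. With siPTBP1 Myl9 had moved up in CY to 101 ± 35.4 TPM, below Myl12b at 199.8 ± 17.5 and above Myl6b at 14.6 ± 4.07 TPM.

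Myl9 (ENSMUSG00000067818) lies on chromosome 2, 156775420 to 156781658, on the plus strand of GRCm38. In siGFP CY it had 12.3, 3.61 and 9.84 TPM in replicates 1, 2 and 3. After siPTBP1 the same fraction held 98.1, 66.8 and 138 TPM, and in the combined knockdown 66.7, 61.1 and 119 TPM. Every knockdown library was far above every control library, and replicate 2 was the lowest of the 3 in each treatment.

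Myl9 rose in CY by 3.48 ± 0.52 on the log2(TPM + 1) scale after siPTBP1 (SE, limma, adjusted p = 0.00215) and by 3.19 ± 0.52 in the combined knockdown (adjusted p = 0.00523). The group means were 8.59 ± 4.48 TPM in siGFP, 101 ± 35.4 after siPTBP1 and 82.4 ± 32.1 in the combined knockdown (SD over 3 libraries), 11.7 and 9.59 times the control mean. Without the replicate 1 libraries the differences were 3.78 (adjusted p = 0.0296) and 3.61 (adjusted p = 0.0400). With a fit of the CY libraries alone the combined knockdown's call was lost (adjusted p = 0.0689). A higher level in bulk RNA does not tell more RNA per cell from more cells that express the gene.

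In NP, Myl9 had 23.2, 7.85 and 16.7 TPM in siGFP, 81.7, 46.8 and 73.2 TPM after siPTBP1, and 53.0, 43.2 and 81.1 TPM in the combined knockdown. The knockdown libraries again did not overlap with the controls. The log2 differences of 2.09 ± 0.52 and 1.90 ± 0.52 did not pass the main test (adjusted p = 0.171 and 0.249). They passed once replicate number was added to the model as a block (adjusted p = 0.000239 and 0.000736).

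In CH, Myl9 had 18.6, 3.62 and 7.79 TPM in siGFP, 47.5, 19.4 and 44.5 TPM after siPTBP1, and 35.7, 15.6 and 36.6 TPM in the combined knockdown. Replicate 1 of siGFP, the highest control, lay just under the lowest siPTBP1 library and above the lowest combined knockdown library. Each knockdown library was above the control of its own number. The log2 differences were 1.94 ± 0.52 (adjusted p = 0.131) and 1.61 ± 0.52 (adjusted p = 0.255), and with the block they passed (adjusted p = 0.000773 and 0.00336). Leaving out replicate 1 of siGFP CH alone also brought the siPTBP1 difference past the threshold (2.48, adjusted p = 0.0420).

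Myl3 (ENSMUSG00000059741), the ventricular and slow skeletal essential chain, lies on chromosome 9, 110741861 to 110769798, plus strand. It was the other chain that rose, from a trace to a low level. In siGFP it had 1.03, 0.720 and 0.290 TPM in CY, 0.600, 0.990 and 0.0900 TPM in NP, and 0.720, 0.660 and 0.220 TPM in CH. After siPTBP1 it had 4.59, 4.99 and 4.70 TPM in CY, 5.09, 4.84 and 4.05 TPM in NP, and 2.49, 4.59 and 4.29 TPM in CH. In the combined knockdown it had 4.05, 4.34 and 3.88 TPM in CY, 3.96, 4.05 and 3.18 TPM in NP, and 3.68, 2.57 and 4.14 TPM in CH. The lowest knockdown library of any fraction was above the highest control library of any fraction.

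The Myl3 differences after siPTBP1 were 1.80 in CY (adjusted p = 0.000425), 1.90 in NP (adjusted p = 0.000367) and 1.63 in CH (adjusted p = 0.000965) on the log2(TPM + 1) scale, each with an SE of 0.23. In the combined knockdown they were 1.62 (adjusted p = 0.00176), 1.64 (adjusted p = 0.00186) and 1.54 (adjusted p = 0.00230). The mean levels were between 6.01 and 8.32 times those of siGFP. Without the replicate 1 libraries the 6 differences lay between 1.59 and 1.97, with adjusted p from 0.0106 to 0.0392. Only 1 of the 9 siGFP libraries reached the minimum of 1 TPM, so Myl3 entered the test through the knockdown libraries. With no minimum its adjusted p was between 0.000451 and 0.00362 in the 6 comparisons.

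The Myl3 calls in CH were lost with median-ratio scaling of the libraries (adjusted p = 0.0539 and 0.0921) and with a fit of the CH libraries alone (0.253 and 0.352). With CY or NP fitted alone, Myl3 in the combined knockdown also missed the threshold (0.0571 and 0.0971). Myl3 overlaps Pth1r, a receptor gene on the opposite strand, over 5285 bases. Pth1r had 1.65 ± 0.588 TPM in siGFP CY, 2.71 ± 0.188 TPM after siPTBP1 and 2.67 ± 1.06 TPM in the combined knockdown. It was not called in any of the 6 comparisons, with or without the block.

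**Figure D1:**
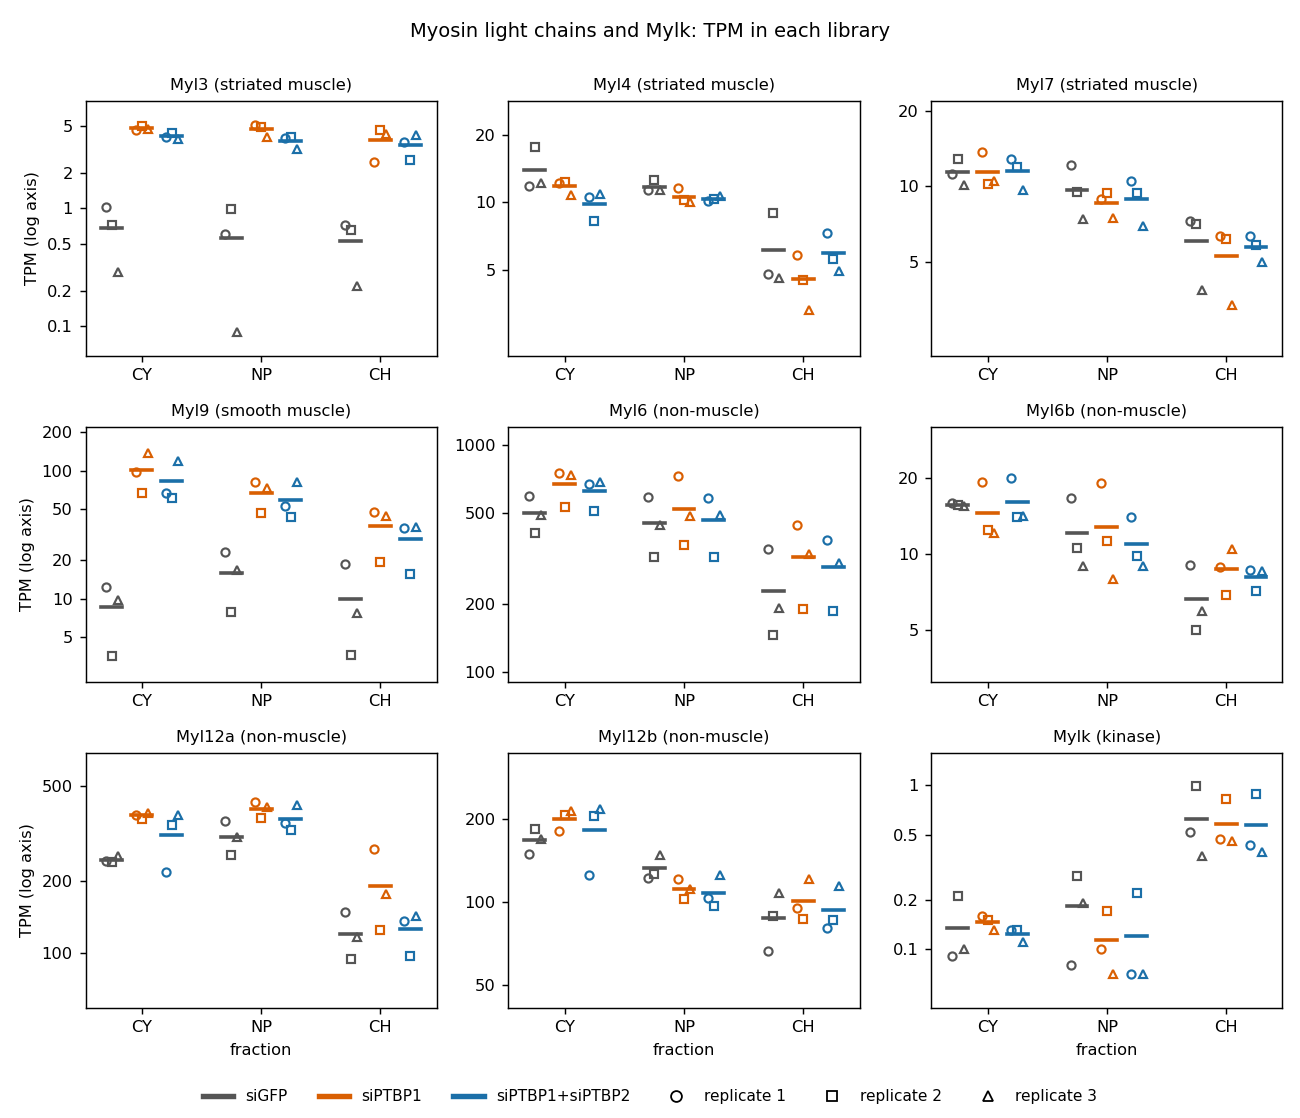
TPM of the 9 genes in each library, on log axes, by fraction and treatment; symbols are replicates 1 to 3 and bars are group means. Myl3 and Myl9 separate by treatment, Myl9 in CH with an overlap, while most other genes differ mainly between fractions.

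Myl4, the atrial and embryonic essential chain, and Myl7, the atrial regulatory chain, are the remaining muscle chains. Myl4 (ENSMUSG00000061086, chromosome 11, 104550663 to 104595753, plus strand) had 11.8, 17.7 and 12.2 TPM in siGFP CY and 10.5, 8.25 and 10.9 TPM in the combined knockdown. These groups did not overlap, the knockdown being the lower, as for 2.28% of all genes. The log2 difference of -0.44 did not pass the test (adjusted p = 1, with the block 0.303). Myl7 (ENSMUSG00000020469, chromosome 11, 5896637 to 5898782, minus strand) had 11.2, 12.9 and 10.2 TPM in siGFP CY, 13.7, 10.2 and 10.5 TPM after siPTBP1, and 12.9, 11.9 and 9.69 TPM in the combined knockdown. These ranges lie on top of each other. Both atrial chains were thus present in control stem cells, above Myl3 in each siGFP CY library and, except for Myl9 in replicate 2, near the level of Myl9 there.

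Myl6, the essential chain of non-muscle and smooth muscle myosin, was the most abundant of the 9 genes, with group means from 228 to 675 TPM. It had 599, 411 and 494 TPM in siGFP CY and 753, 535 and 737 TPM after siPTBP1, each higher than the control of its number but with overlapping groups (log2 difference 0.43, adjusted p = 1, with the block 0.221). It lies on chromosome 10, 128490860 to 128494145, minus strand (ENSMUSG00000090841). Myl6b (ENSMUSG00000039824), an essential chain of slow muscle and non-muscle cells, begins 12 bases beyond it on the same strand and ends at 128498685. Its group means were only 6.64 to 16.0 TPM, and its log2 differences lay within 0.37 of 0 in the 6 knockdown comparisons.

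Myl12a and Myl12b, the non-muscle regulatory chains, lie 2766 bases apart on the minus strand of chromosome 17 (Myl12a, ENSMUSG00000024048, 70993656 to 71002878; Myl12b, ENSMUSG00000034868, 70973133 to 70990890). Myl12a had 243, 239 and 254 TPM in siGFP CY and 377, 363 and 386 TPM after siPTBP1. The groups did not overlap and their own spread was small, yet the log2 difference of 0.61 ± 0.25 did not pass (adjusted p = 0.885, with the block 0.182). In the combined knockdown Myl12a had 219, 343 and 376 TPM, with replicate 1 below all controls.

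After siPTBP1 Myl12a was also higher than siGFP in NP (log2 difference 0.40, adjusted p = 1) and CH (0.62, adjusted p = 0.512), neither of which passed. Myl12b in siPTBP1 NP had 121, 102 and 111 TPM against 122, 126 and 148 TPM in siGFP (log2 difference -0.24, adjusted p = 1). It was lower without overlap, as were 4.67% of all genes there. Over the 6 tested chains other than Myl3 and Myl9 and the 6 knockdown comparisons, the 36 log2 differences ranged from -0.44 to 0.62. The smallest adjusted p was 0.512, and 0.0972 with the block.

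**Figure D2:**
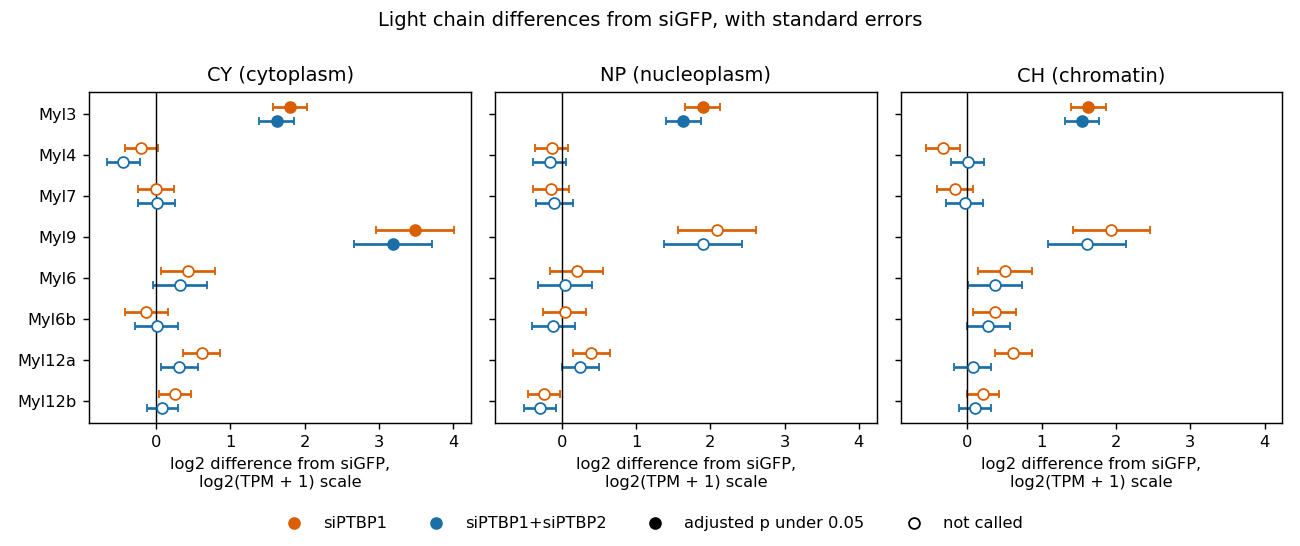
Log2 difference from siGFP on the log2(TPM + 1) scale, with its standard error, for the 8 tested light chains in each fraction; filled points passed an adjusted p of 0.05. Myl3 is filled in all 6 comparisons, Myl9 in the 2 of CY, and the other chains lie between -0.44 and 0.62.

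Of the 8 tested chains, 2 rose and none fell in CY after siPTBP1, where 0.228% of all 20611 tested genes were called and 0.16% rose. The combined knockdown gave 2 that rose in CY (0.243% called, 0.15% rose). In NP 1 chain rose after siPTBP1 (0.16% called, 0.107% rose) and 1 in the combined knockdown (0.155% called, 0.0922% rose). In CH 1 rose after siPTBP1 (0.398% called, 0.272% rose) and 1 in the combined knockdown (0.427% called, 0.325% rose). None of the 8 fell in these comparisons. Since Myl3 was among the tested genes through its knockdown libraries, these counts describe the chains and are no support for a change of the set.

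With the replicate block Myl3 and Myl9 rose in each of the 6 comparisons and no other chain did. The share of all genes that rose with the block was 1.33%, 1.2% and 1.82% in CY, NP and CH after siPTBP1, and 1.7%, 1.14% and 1.64% in the combined knockdown. All 6 comparisons use the siGFP libraries, so the 2 knockdowns are not independent. Groups without overlap were common: in CY after siPTBP1 9.17% of all genes were higher and 2.18% lower in every knockdown library than in every control, against 3 and 0 of the 8 chains. The median log2 difference of the 8 chains there was 0.34, against 0.06 over all genes, and for the combined knockdown 0.20 against 0.

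The added siRNA against Ptbp2 was assessed by comparing the combined knockdown with siPTBP1. None of the 8 tested chains was called with limma in CY (0% of all genes called), NP (0.00485%) or CH (0.107%). At an unadjusted level of 0.05 there were 0, 0 and 1 of the 8, the 1 being Myl12a in CH with a log2 difference of -0.55, where 0.713%, 0.733% and 3.21% of all genes reached that level. Myl9 differed by -0.29 ± 0.52 in CY, -0.19 ± 0.52 in NP and -0.33 ± 0.52 in CH. Myl3 differed by -0.18 ± 0.23, -0.26 ± 0.23 and -0.09 ± 0.23 (SE). In libraries of the same number the combined knockdown was the lower in 3 of 3 pairs for Myl3 in CY and NP. The same held for Myl9, Myl12a and Myl6 in CY and CH, and for Myl12b in CH. It was the higher in 3 of 3 pairs for Myl6b in CY and Myl4 in CH. The share of all genes with such pairs was not computed. The Myl3 libraries in CY did not overlap, as for 1.59% of all genes that were lower. With the block these differences were not called either (adjusted p = 0.981 for Myl9 in CY, 0.733 for Myl12a in CH and 1 for Myl3 in CY).

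Mylk (ENSMUSG00000022836, chromosome 16, 34745210 to 35002420, plus strand), the kinase of the regulatory chains in smooth muscle and non-muscle cells, was between 0.0700 and 0.990 TPM in the 27 libraries. It never reached 1 TPM and was not in the main test. In siGFP it had 0.0900, 0.210 and 0.1 TPM in CY and 0.520, 0.990 and 0.370 TPM in CH. After siPTBP1 CY held 0.160, 0.150 and 0.130 TPM, and CH held 0.470, 0.820 and 0.460 TPM. In the combined knockdown CY held 0.130, 0.130 and 0.110 TPM, and CH held 0.430, 0.890 and 0.390 TPM. Within each treatment all CH libraries were above all CY libraries, and the treatments overlapped within each fraction. The former was common: in siGFP 58% of all tested genes were higher in CH than in CY without overlap.

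The fractions of control cells were compared next. TPM are shares of a library, so a difference between fractions is relative to the other RNAs in each. Over all treatments, mitochondrially encoded transcripts made up 9.31% to 22.5% of TPM in NP libraries. They made up 0.0416% to 0.111% in CY and 0.511% to 1.68% in CH. Their part in the differences and ratios between fractions was not tested. In siGFP, 6 of the 8 tested chains were lower in CH than in CY, where 66% of all genes were called and 8.08% were lower: Myl6 (log2 difference -1.21, adjusted p = 0.00597), Myl6b (-1.16, 0.00136), Myl4 (-1.10, 0.000215), Myl12a (-1.05, 0.000867), Myl12b (-0.95, 0.000601) and Myl7 (-0.84, 0.00477). The median of all tested genes was 0.95 higher in CH than in CY, and with median-ratio scaling 0.26, a shift of -0.69. The same count of 6 chains was lower with that scaling, under which all genes split into 7095 higher and 4565 lower rather than 11942 and 1665.

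Myl3 (-0.12, adjusted p = 0.654) and Myl9 (0.09, adjusted p = 0.898) were not called between CH and CY in siGFP. The sign of the Myl9 difference depended on the setting, with -0.85 under median-ratio scaling and -0.15 without the replicate 1 libraries. Between NP and CY none of the 8 chains was called with limma (12.8% of all genes called), and 0 of them reached an unadjusted level of 0.05, as 22.6% of all genes did. The differences ran from -0.40 for Myl6b to 0.84 for Myl9 against a median of 0.15 over all genes, which median-ratio scaling moved by -0.15. Under that scaling all genes split into 2171 higher and 852 lower rather than 2543 and 95, and Myl12b was called lower (adjusted p = 0.0169). With the block Myl9 was higher in NP (adjusted p = 0.0299), where 28.3% of all genes were called.

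Myl9 stood relatively higher in CY after the knockdowns than in control cells. In libraries of the same number, the CH to CY ratio of Myl9 was 1.51, 1.00 and 0.792 in siGFP, 0.484, 0.291 and 0.324 after siPTBP1, and 0.535, 0.255 and 0.306 in the combined knockdown. The knockdown ratios all lay below the control ratios. The NP to CY ratio was 1.92 ± 0.242 in siGFP, 0.688 ± 0.151 after siPTBP1 and 0.727 ± 0.0597 in the combined knockdown (SD over 3 libraries).

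Tested as a difference of effects, the Myl9 change was smaller in CH than in CY by 1.54 ± 0.74 after siPTBP1 (limma, adjusted p = 1, with the block 0.193) and by 1.58 ± 0.74 in the combined knockdown (adjusted p = 1, with the block 0.111). Neither passed, so the shift between fractions is a description of these libraries. No other chain was called or reached an unadjusted level of 0.05 (0.0437% and 0.0582% of all genes called, 2.58% and 3.08% at that level). For Myl3 the same differences of effects were -0.17 and -0.08, with SE 0.33. The CH to CY ratios of Myl6 were 0.441 ± 0.122, 0.465 ± 0.118 and 0.454 ± 0.101 in the 3 treatments, and those of Myl12b 0.521 ± 0.101, 0.505 ± 0.0761 and 0.531 ± 0.113, overlapping across treatments.

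**Figure D3:**
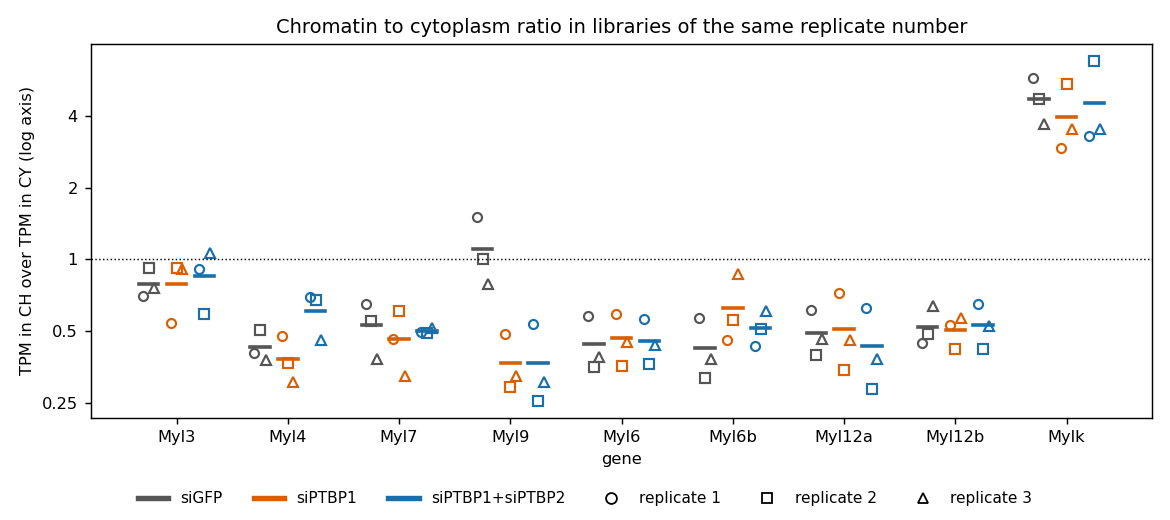
Ratio of TPM in CH to TPM in CY for libraries of the same replicate number, on a log axis, by gene and treatment; bars are means of 3 ratios. Myl9 lies near 1 in siGFP (1.10 ± 0.371) and near 0.37 in the knockdowns, whereas Mylk is above 2 and most other chains near 0.5 in every treatment.

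The 4 muscle chains Myl3, Myl4, Myl7 and Myl9 were also summed and set against the sum of the 8 light chains. In CY it made up 3.60 ± 0.309% of light chain TPM with siGFP, 9.14 ± 1.54% with siPTBP1 and 8.55 ± 1.33% with both siRNAs (SD over 3 libraries). In NP the lowest and highest library were 3.76% and 4.17% in siGFP, 7.64% and 8.55% after siPTBP1, and 6.89% and 8.92% in the combined knockdown. CH libraries ran from 3.75% to 5.73%, from 7.04% to 7.97% and from 7.26% to 8.19%. The knockdown libraries did not overlap with the siGFP libraries in any fraction. With Myl9 left out of both sums the share was 2.75 ± 0.696% in siGFP CY and 2.18 ± 0.261% after siPTBP1, so the difference lay in Myl9. These sums leave out Mylpf, a skeletal muscle chain described further on, whose mean in siGFP CY was above that of each of the 4. With Mylpf added to both sums, an alternative chosen after its values were seen, the CY shares were 13.1 ± 2.10% with siGFP, 14.4 ± 2.40% with siPTBP1 and 14.2 ± 2.48% with both siRNAs. The libraries of the 3 treatments then overlapped in every fraction. The shares were not tested.

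Of the summed TPM of the 3 regulatory chains whose sequences are shown above, Myl9 held 2.06 ± 1.12% in siGFP CY, against 14.7 ± 4.10% with siPTBP1 and 14.3 ± 3.74% with both siRNAs. Myl12a and Myl12b still held most of it. Of the Myl12a and Myl12b sum in CY, Myl12a was 59.5 ± 2.78% with siGFP, 65.3 ± 2.14% with siPTBP1 and 63.2 ± 0.597% with both siRNAs.

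**Figure D4:**
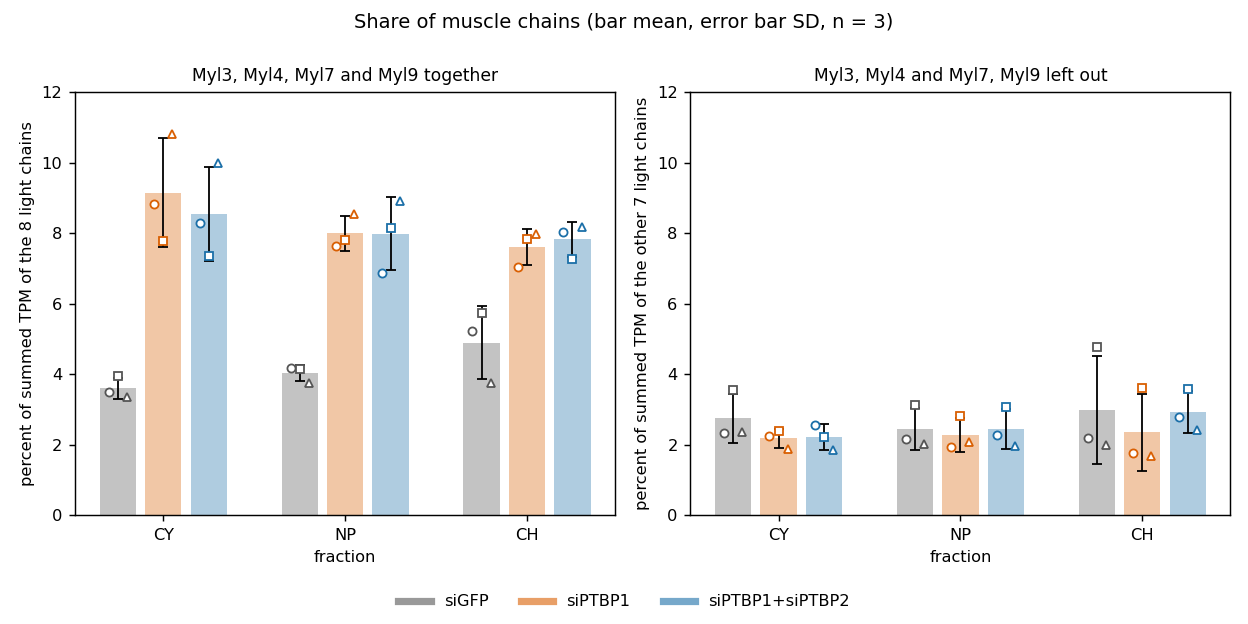
Share of the muscle chains in summed light chain TPM by fraction and treatment, with Myl9 (left) and with Myl9 left out (right); bars are means, error bars SD, points the 3 libraries. The left bars stand at 3.60%, 9.14% and 8.55% in CY, and all right bars stand between 2.18% and 2.99%.

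Myl9 and Myl3, which both rose in the knockdowns, were correlated across libraries. After the mean of each fraction was taken off, their log2(TPM + 1) values had a Pearson correlation of 0.82 over the 27 libraries, which share treatments, fractions and replicate numbers. Treatment differences were not taken off and are part of each correlation here. In CY replicate 2 was the lowest library of Myl9 in each treatment, but the highest of Myl3 in both knockdowns. Myl9 and Myl12a had 0.74, and Myl9 and Myl4 -0.52. The 4 named genes most like Myl9 by this measure were Acta2 (0.950), Cnn1 (0.939), Cnn2 (0.929) and Zyx (0.929), which encode smooth muscle actin, calponins 1 and 2, and the focal adhesion protein zyxin. Those most like Myl3 were Cnih3 (0.915), Igdcc4 (0.891), Atp6v1g2 (0.891) and Sv2a (0.883). Cnih3, an auxiliary subunit of AMPA receptors, rose from 0.160 ± 0.0361 to 2.94 ± 0.876 TPM in CY after siPTBP1 (adjusted p = 0.000425), and Sv2a, a synaptic vesicle protein, had 1.04 ± 0.608 and 2.71 ± 0.151 TPM (adjusted p = 0.129). As these genes were picked by a correlation that includes treatment differences, their own differences are no independent support.

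Thin filament genes, the actin side of the contractile pair, held further genes that rose. Of 24 listed, 23 were tested, and 4 rose and none fell in CY after siPTBP1, where 0.16% of all genes rose, with a median log2 difference of 0.38 against 0.06 over all genes. These were Actc1, Acta2, Tpm1 and Cnn1, all known as genes of muscle. Actc1, cardiac actin, had 0.940, 0.360 and 1.84 TPM in siGFP CY and 30.1, 49.8 and 78.9 TPM after siPTBP1 (log2 difference 4.68, adjusted p = 0.000177). Acta2 had 4.93, 2.37 and 6.46 TPM and then 51.0, 69.5 and 124 TPM (3.86, adjusted p = 0.000730). No knockdown library of either gene overlapped with a control.

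Tpm1, an alpha-tropomyosin gene, had 55.3, 72.7 and 88.3 TPM in siGFP CY and 253, 277 and 391 TPM after siPTBP1 (log2 difference 2.07, adjusted p = 0.00948). The call was lost without replicate 1 of siGFP CY (0.0767) or replicate 3 of siPTBP1 CY (0.0771). Cnn1 had 6.15, 6.24 and 4.78 TPM and then 46.6, 29.7 and 52.0 TPM (2.67, adjusted p = 0.0428), a call lost when any 1 of these 6 libraries was left out (0.107 to 0.247), and also with no minimum (0.0864), median-ratio scaling (0.0896) or no replicate 1 libraries (0.0954). In the combined knockdown 2 thin filament genes rose in CY, where 0.15% of all genes rose, Actc1 (4.49, adjusted p = 0.000263) and Acta2 (3.52, adjusted p = 0.00228). In NP and CH, Actc1 alone of the 23 rose, in both treatments, but not without the replicate 1 libraries (adjusted p = 0.0615 and 0.0537 in NP, 0.0901 and 0.0832 in CH). With a fit of the CH libraries alone Actc1 missed the threshold in CH of both treatments (0.255 and 0.352). The Actc1 call in CH of the combined knockdown was also lost without replicate 2 of siGFP CH (0.0568) or replicate 3 of the combined knockdown (0.0858). A fit of the CY libraries alone lost Acta2 in both treatments (0.0605 and 0.0795) and Tpm1 (0.443). With the block 8 rose in CY after siPTBP1, where 1.33% of all genes rose. In the combined knockdown 7 rose and 3 fell with the block (1.7% of all genes rose and 0.951% fell), the latter being Actg1, Cald1 and Tpm2. In NP 4 rose and 2 fell with the block in each treatment, where 1.2% and 1.14% of all genes rose and 0.684% and 0.704% fell. In CH 3 rose and none fell with the block in each treatment, where 1.82% and 1.64% of all genes rose.

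Of the 23 genes listed for regulation of light chain phosphorylation, all tested, 1 rose and none fell in CY in either knockdown, where 0.16% and 0.15% of all genes rose. It was Ppp1r12b, a targeting subunit of myosin phosphatase, which takes the phosphate off the regulatory chains. Ppp1r12b had 0.390, 0.700 and 0.770 TPM in siGFP CY, 2.77, 3.71 and 3.02 TPM after siPTBP1, and 2.06, 3.94 and 3.05 TPM in the combined knockdown. The log2 differences were 1.36 (adjusted p = 0.00328) and 1.29 (adjusted p = 0.00523). Leaving out replicate 2 of the combined knockdown in CY took the latter call away (0.0558), and a fit of the CY libraries alone took both (0.139 and 0.177). In CH Ppp1r12b was at 7.37 ± 2.43 TPM in siGFP and 9.03 ± 2.25 TPM after siPTBP1, overlapping. In NP it was 0.89 higher in each treatment on the log2 scale, which did not pass (adjusted p = 0.133 and 0.139) unless the block was used (0.00566 and 0.00586).

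The related Ppp1r12a had 23.6 ± 11.7 TPM in siGFP CY and 26.1 ± 13.3 TPM after siPTBP1 (adjusted p = 1). Dapk3, a kinase that can phosphorylate regulatory chains, had 61.8 ± 15.2 and 105 ± 17.9 TPM (log2 difference 0.77, adjusted p = 1, with the block 0.0131). The heavy chains that the light chains serve showed no call. Of 14 listed myosin II heavy chain genes 9 were tested, and 0 were called in any of the 6 comparisons with limma. At an unadjusted level of 0.05 there were 0 to 2 of the 9, against 4.41% to 6.94% of all genes. Myh9 and Myh10, the main non-muscle heavy chains, had 60.0 ± 9.97 and 37.2 ± 12.4 TPM in siGFP CY and 67.8 ± 7.06 and 49.8 ± 15.7 TPM after siPTBP1. Myh11, the smooth muscle heavy chain, had 0.113 ± 0.0764 and 0.493 ± 0.290 TPM there, and passed only with the block, in NP (adjusted p = 0.0415 and 0.0323) and CH (0.0154 and 0.00196).

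Of 7 other light chain and light chain kinase genes, 2 were tested and 0 were called with limma in the 6 comparisons, 0 also at an unadjusted level of 0.05. They were Myl1, an essential chain of fast skeletal muscle, with 0.347 ± 0.205 TPM in siGFP CY and 0.977 ± 0.470 TPM after siPTBP1, and Mylpf, the regulatory chain of fast skeletal muscle, with 107 ± 34.6 and 88.2 ± 30.7 TPM. The mean of Mylpf thus stood above those of all 4 muscle chains described here in control cytoplasm.

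Summed levels of smooth muscle markers (Myh11, Lmod1, Smtn, Des, Cnn1 and Myocd) were higher beside Myl9 in CY. Most of the rise lay in Cnn1, already described among the thin filament genes. The mean of Cnn1 was 5.72 TPM in siGFP, 42.7 after siPTBP1 and 33.6 in the combined knockdown. The means of the sums were 38.1, 83.7 and 74.5 TPM. The 6 markers summed to between 31.1 and 43.9 TPM in siGFP, 71.2 and 91.6 TPM after siPTBP1, and 66.8 and 82.5 TPM in the combined knockdown, and of the 5 tested only Cnn1 was called, after siPTBP1. In NP the sums were 46.9 to 66.5, 54.4 to 98.8 and 49.4 to 96.7 TPM, which overlap. In CH they were 86.2 to 152 with siGFP, 157 to 169 with siPTBP1 and 140 to 184 TPM with both siRNAs, the siPTBP1 libraries all lying above the controls. In NP and CH 0 of the 5 were called with limma, with 2 to 3 at an unadjusted level of 0.05, against 4.88% to 6.94% of all genes. With the block 1 of the 5 rose in each of the 6 comparisons, where 1.14% to 1.82% of all genes rose. It was not the same marker throughout, being Cnn1 in CY after siPTBP1 and Myh11 in NP and CH of both knockdowns. The part of these markers in the Myl9 result was not tested. Myocd, the coactivator that marks smooth muscle, was at most 0.840 TPM in any library. The 7 cardiomyocyte markers summed to between 5.83 and 8.38 TPM in siGFP CY and 7.58 and 8.57 TPM after siPTBP1. There 0 of the 4 tested were called (limma, 1 of 4 at an unadjusted level of 0.05, against 4.41% of all genes). Nppa was at 0 in 19 of 27 libraries, while Myh6 was between 1.92 and 13.9 TPM. The 6 skeletal muscle markers summed to at most 2.53 TPM, with Myf5 at 0 in 21 libraries and Ckm between 0.310 and 2.04 TPM. The 7 fibroblast markers summed to between 10.5 and 15.8 TPM in siGFP CY and 7.66 and 14.7 TPM after siPTBP1. In NP these sums were 32.5 to 53.8 and 40.8 to 77.9 TPM, and in CH 84.7 to 159 and 51.0 to 77.0 TPM. Lum was at 0 in 25 libraries, while Col1a1 reached 105, Col1a2 30.1 and Thy1 24.4 TPM.

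Srf, the gene of the factor that binds the CArG box, had 19.6 ± 1.55 TPM in siGFP CY, 45.9 ± 3.93 TPM after siPTBP1 and 48.1 ± 7.36 TPM in the combined knockdown. The knockdown libraries were higher without overlap, as were 9.17% and 6.91% of all genes. The log2 differences of 1.18 and 1.24 did not pass (adjusted p = 0.510 and 0.387) except with the block (0.00513 and 0.00295). The 9 symbols listed for SRF and its coactivators stood for 7 genes, since Mkl1 and Mkl2 were also listed as Mrtfa and Mrtfb. Of these genes 5 were tested. With limma 0 were called in any of the 6 comparisons without the block. At most 1, Srf, reached an unadjusted level of 0.05, as 4.41% to 6.94% of all genes did. No neighbouring gene of Myl9 was called in CY: Dlgap4, 11057 bases away, had 38.0 ± 4.48 and 39.1 ± 2.39 TPM and Tgif2, 58349 bases away, 50.6 ± 1.41 and 65.3 ± 8.10 TPM in siGFP and after siPTBP1.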

How the data were processed

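The deposited file holds TPM per gene, which the authors made, per the submitters' processing notes with STAR and kallisto on mm10; versions, annotation release and strand setting are not given in the sources used here. Transcript annotation was GENCODE M21 and promoter windows were from RefSeq (GRCm38.p6). Genes with at least 1 TPM in at least 3 of 27 libraries were tested (20611 genes; 8 of the 9 members) on log2(TPM + 1), a scale that understates changes of low genes, with limma 3.58.1 in R 4.3.3 (trend, robust, two-sided, 9 group means, 18 residual degrees of freedom). A gene is called where its p, adjusted by Benjamini-Hochberg over all tested genes, is under 0.05. TPM keeps no depth, so no counting interval is given. A p-value here reflects the spread of a gene's libraries around their means, pooled over all 9 groups and drawn toward that of genes of similar level. It is not set by the spread of the compared libraries alone.

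Deviations from group means correlated at 0.130 or more (median 0.365) in 108 pairs of libraries with the same number, and 27 of 27 libraries correlated best with their own number. The numbers therefore pair the samples; the values show this, and no label states it. The block has 16 residual degrees of freedom.

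Named genes are all members, Ptbp1, Ptbp2, called members of each list (at most 6), the 4 genes most like each called member, and marker genes; other genes named, such as Dapk3, Srf, Mylpf, Pth1r, the non-muscle heavy chains and the genes next to Myl9, were chosen after their values were seen. Members and lists were chosen with earlier results of these data known. Alternatives were a pseudocount of 0.1, no minimum, median-ratio scaling, a fit of the compared fractions, the block, each library left out, and all replicate 1 libraries left out. Shares with Mylpf added to the sums were chosen after its values were seen.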

Additional observations from a re-analysis of the deposited data

How the results depend on the processing

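The number of light chains called, out of 8 tested, changed with the setting. With the replicate block it went from 1 to 2 in NP and CH of both treatments, and from 0 to 1 between NP and CY; the block changed no other count of light chains called. With median-ratio scaling it went from 1 to 0 in CH of both treatments and from 0 to 1 between NP and CY (Myl12b, adjusted p = 0.0169). With a fit of the compared fractions only it went from 1 to 0 in CH of both treatments and in NP of the combined knockdown, and from 2 to 0 in CY of the combined knockdown. Without the replicate 1 libraries it went from 0 to 1 between NP and CY (Myl6b, adjusted p = 0.0426), and with single libraries left out it was 1 to 2 for siPTBP1 in CH. With no minimum Mylk was tested too, and the members called between CH and CY in siGFP went from 6 to 7.

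Over all members, comparisons and settings, 126 differences that were not called changed sign, with a main size of at most 0.328. Among those printed in the report the sign changed for Myl9 between CH and CY (-0.85 with median-ratio scaling, -0.15 without the replicate 1 libraries), Myl12a between NP and CY (-0.11 with that scaling), the Myl3 difference of combined knockdown effects between CH and CY (0.0268 with a pseudocount of 0.1), and Myl9 in the combined knockdown against siPTBP1 in NP (0.0167 without the replicate 1 libraries). With single libraries left out, Myl9 ranged from -0.45 to 0.59 between CH and CY, and, in the combined knockdown against siPTBP1, from -0.44 to 0.0034 in NP and from -0.73 to 0.0607 in CH. Myl3 ranged from -0.30 to 0.0644 in the latter comparison in CH, from -0.30 to 0.0330 between CH and CY, from -0.32 to 0.11 between NP and CY, and from -0.33 to 0.0412 and from -0.24 to 0.10 in the differences of effects, and Myl6 from -0.39 to 0.0515 between NP and CY.

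Counts of all genes called in CY, NP and CH were 47, 33 and 82 after siPTBP1 and 50, 32 and 88 in the combined knockdown. They became 12, 16 and 8, and 10, 11 and 2, with a fit of the compared fractions only, and 96, 108 and 159, and 101, 86 and 183, without the replicate 1 libraries. In CH they became 32 and 28 with a pseudocount of 0.1 and 391 and 384 with no minimum. With single libraries left out they ranged from 22 to 39, 17 to 35 and 60 to 182 after siPTBP1, and from 21 to 51, 19 to 29 and 49 to 173 in the combined knockdown. The libraries that moved a count by over 1.5 times were, after siPTBP1, siGFP CY replicates 1 and 3 (25 and 24), siPTBP1 CY replicates 2 and 3 (22 each), siGFP NP replicate 1 (21), siPTBP1 NP replicate 2 (17) and siPTBP1 CH replicate 1 (182). For the combined knockdown they were siGFP CY replicate 3 (21), combined CY replicate 2 (27), siGFP NP replicate 1 (20), combined NP replicate 2 (19) and combined CH replicates 1 and 3 (173 and 49). With the block the count in CY after siPTBP1 went to 377, and with median-ratio scaling its split from 33 higher and 14 lower to 31 and 28. That scaling moved the split from 22 and 11 to 47 and 14 in NP and from 56 and 26 to 23 and 18 in CH after siPTBP1, and, in the combined knockdown, from 31 and 19 to 47 and 32 in CY, from 19 and 13 to 42 and 16 in NP and from 67 and 21 to 20 and 7 in CH. With the block the counts went to 547 in CY of the combined knockdown, to 388 and 379 in NP and to 505 and 436 in CH. With Mylpf added to both sums, the share of the muscle chains moved in 9 of 9 groups, to between 13.1% and 16.8%. TPM hide the depth, which limits what can be said of Mylk and of Myl3 in control cells.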
